A study of Danio rerio with 16 samples.

Results

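The zona pellucida genes encode the proteins of the egg coat, the extracellular envelope that surrounds a growing oocyte and that sperm meet at fertilisation. Proteins of this family share a zona pellucida domain, through which the subunits polymerise into filaments; the zp2 and zp3 forms are 2 branches of the family. In fish the coat is thick and multilayered and becomes the chorion of the egg. Fish genomes carry many copies of these genes, often in tandem. In zebrafish they are known as transcripts of the ovary, whereas in other fish, such as medaka, some egg coat proteins are made in the liver under the control of estrogen.

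The genes described here are those with a symbol that starts with zp followed by a digit or by the letter c in the study's supplementary tables and with an Ensembl identifier in the count table. This rule found 16 of the 32520 genes counted. They comprise 9 zp3 forms, 6 zp2 forms and zpcx. Of the 16, 15 stood in the study's list from juvenile fish, which are not among the samples used here. That juvenile list holds genes called as different between exemestane-treated juveniles and their solvent controls. These 15 were thus listed for a difference with the same drug in other fish. A list of genes higher in control females than in control males held 7 of them, 6 of which were also in the juvenile list, and zp2l2 stood in that adult list alone. Because that adult list was made from control fish, taken here as the same ones, the sex difference among control fish is given without a test, and sex was tested in the exemestane-treated fish.

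The study asked which early transcriptional changes exemestane, a steroidal inhibitor of the estrogen-producing enzyme aromatase, causes in the gonads of adult zebrafish. RNA was sequenced from the ovary or testis of 16 fish of the AB strain aged 4 months, with 1 fish per library. The 8 groups of 2 fish were females and males kept for 32 days with exemestane (EM) at 50, 100 or 200 μg/L, called EM-females and EM-males, or as controls. The labels name no solvent for the controls, and the study's methods describe both a DMSO control and a null control without it. The controls were taken here to be the DMSO control, which was not tested. Exemestane was dissolved in DMSO, and the solvent is shared by all groups only if this holds. Each of the 4 treatments was 1 tank of 3 females and 3 males, and an effect of a treatment and an effect of its tank cannot be told apart. A second set of adult controls and the juvenile fish of the study were not analysed here.

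The libraries held between 4043394 and 13821205 reads assigned to genes. The labelled sex fitted the markers of the gonads, since 13 testis genes summed to between 93.1 and 258 normalized counts in the 8 females and to between 16303 and 30892 in the 8 males. Oocyte transcription factors were found for 3 of the 6 genes listed (figla, lhx8a and pou5f3), and these summed to between 1779 and 2371 in females and between 134 and 355 in males. A normalized count is a read count divided by a factor for the depth of its library. These counts are not divided by transcript length, and levels are therefore compared between fish and not between genes. Reads that mapped to more than 1 place were not counted, and they made up 33.5 to 36.7% of tallied reads in females and 24.8 to 31.7% in males. How many of them came from zona pellucida genes is unknown, and the values of near-identical copies are uncertain to that extent.

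As a group, the 16 genes were ovary transcripts. Their reads made up between 1.18 and 1.68% of the reads on genes in each female and between 0.00791 and 0.0234% in each male. The summed normalized count lay between 83074 and 125261 in the females and between 856 and 1791 in the males. In these bulk gonads, fewer cells of a type and less RNA per cell cannot be told apart. The lowest and the highest female sums were those of the control females, so that the 6 EM-females, at 98240 to 111613, lay between them.

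**Figure D1:**
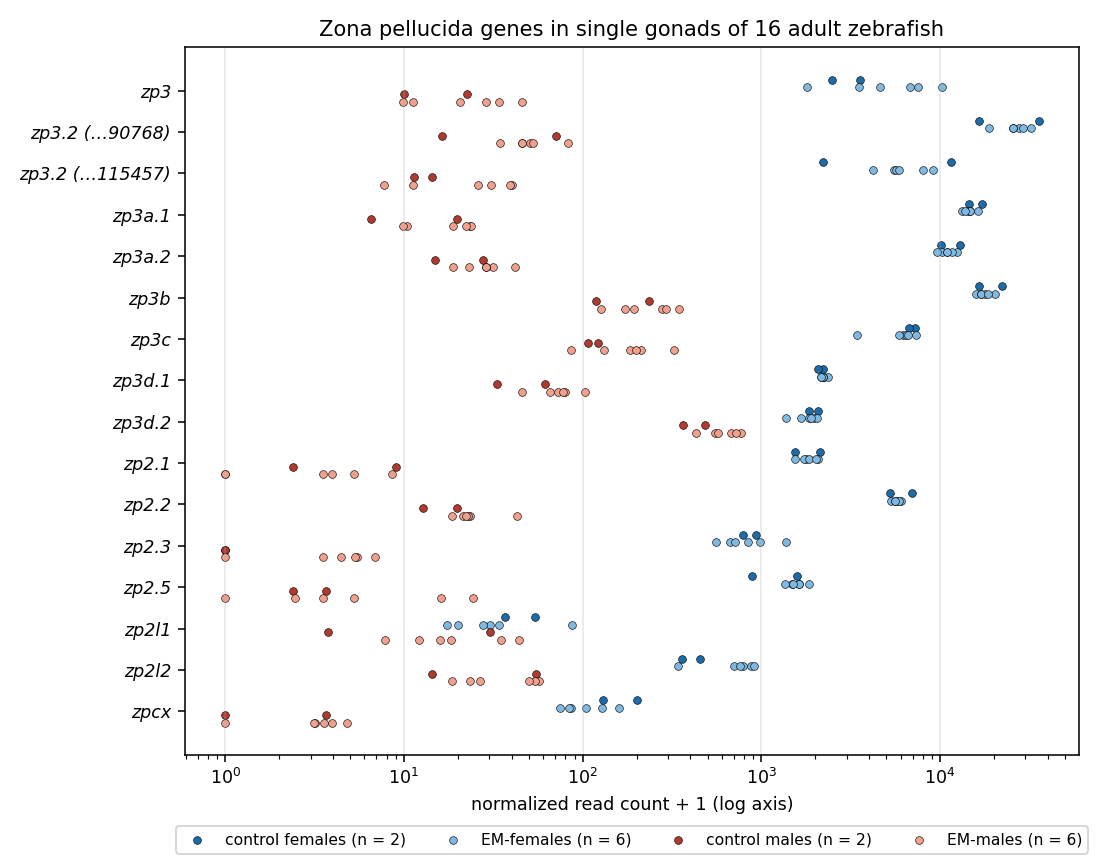
Normalized read count plus 1 (log axis) of each of the 16 zona pellucida genes, with 1 point per fish, coloured by sex and treatment; identifiers of the zp3.2 genes are shortened to their last digits. Every female lies above every male for 15 of 16 genes, the exception being zp2l1.

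Among EM-treated fish, 15 of 16 genes were higher in females than in males and none was lower (edgeR's quasi-likelihood test, Benjamini-Hochberg adjusted p under 0.05). Over all 17253 genes tested, 34.6% were higher and 41.4% lower in EM-females. The median log2 difference was 7.88 over the 16 genes and −0.19 over all genes tested. The adjusted p of the 15 genes lay between 7.31e-12 and 4.09e-07 in edgeR's quasi-likelihood test. Genes with few reads in males, zpcx, zp2.1, zp2.3 and zp2.5 among them, passed the read filter of this test through the females. Their call as higher followed largely from that filter and adds no support of its own. Every EM-female lay above every EM-male for the same number of genes, 15 of 16, where 15.8% of all genes showed this order. In control fish every female lay above every male for all 16 genes (25.1% of all genes), and over all 16 fish together for 15 of 16 genes (13.6% of all genes). These last counts are a description only, since 7 of the 16 genes had been listed for being higher in control females.

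The largest separation was that of zp3a.1, a zp3 form that neighbours zp3a.2 in the GRCz12tu annotation. Normalized counts of zp3a.1 were 13319 to 16330 in the EM-females, with a median of 14465, and 14481 and 17240 in the control females. In males they were 8.82 to 22.8 in the EM-males, with a median of 19.6, and 5.54 and 18.7 in the control males. All females therefore lay far above all males, and neither sex had a fish that stood apart. The log2 difference between EM-females and EM-males was 9.87 ± 0.298 (SE), with an adjusted p of 1.05e-11 in edgeR's quasi-likelihood test. Its neighbour zp3a.2 had 9533 to 12839 normalized counts in the 8 females and 13.9 to 40.7 in the 8 males. The log2 difference of zp3a.2 in EM fish was 8.72 ± 0.232 (SE), with an adjusted p of 7.31e-12 in the edgeR test.

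Further zp3 forms showed the same order of the sexes with smaller differences. For zp3b the females ranged from 15953 to 22236 normalized counts and the males from 118 to 346. The males were thus at 1.32% of the female mean among EM fish, and the log2 difference was 6.36 ± 0.267 (SE, edgeR adjusted p = 1.61e-10). For zp3c the EM-females had between 3412 and 7286, with a median of 6312, the control females 6659 and 7201, the EM-males between 85.3 and 321 and the control males 106 and 120. The difference of zp3c was 5.11 ± 0.317 (SE) on the log2 scale, with an edgeR adjusted p of 5.67e-09.

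The neighbouring genes zp3d.1 and zp3d.2 differed in how far the males lay below the females. Normalized counts of zp3d.1 were 2141 to 2358 in the EM-females, with a median of 2212, and 2066 and 2218 in the control females. The EM-males had 44.7 to 102, with a median of 74.1, and the control males 32.1 and 60.3. The sexes were far apart for zp3d.1, and the log2 difference among EM fish was 5.03 ± 0.183 (SE, edgeR adjusted p = 4.92e-11). Normalized counts of zp3d.2 were 1364 to 2033 in the EM-females, with a median of 1866, and 1852 and 2076 in the control females. The EM-males had 430 to 768, with a median of 625, and the control males 361 and 482. No male of zp3d.2 reached the lowest female, although the gap was narrower than for zp3d.1. The log2 difference of zp3d.2 was 1.65 ± 0.160 (SE) with an edgeR adjusted p of 4.09e-07, the smallest difference among the 15 genes that passed the test.

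The zp3 gene itself neighbours zp3.2 (ENSDARG00000115457) in GRCz12tu, and a second identifier, ENSDARG00000090768, also carried the symbol zp3.2 in the study's tables, whereas the reference table names it zgc:173556. For zp3 the females ranged from 1792 to 10253 normalized counts and the males from 8.82 to 44.6, a log2 difference of 8.07 ± 0.558 in EM fish (SE, edgeR adjusted p = 2.10e-08). For zp3.2 (ENSDARG00000090768) the females ranged from 16416 to 35502 and the males from 15.2 to 81.4, a log2 difference of 9.13 ± 0.283 (SE, edgeR adjusted p = 1.30e-11). For zp3.2 (ENSDARG00000115457) the females ranged from 2197 to 11499 and the males from 6.69 to 39.4, a log2 difference of 8.11 ± 0.437 (SE, edgeR adjusted p = 1.65e-09). The EM-female mean was thus 239-fold, 520-fold and 257-fold that of the EM-males for these genes in turn, and the females of zp3 and zp3.2 (ENSDARG00000115457) spread widely.

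The zp2 forms zp2.1, zp2.2, zp2.3 and zp2.5 were nearly absent from testis. Normalized counts of zp2.2 were 5203 to 6944 in females and 11.8 to 42.0 in males, and the log2 difference in EM fish was 7.98 ± 0.234 (SE, edgeR adjusted p = 1.04e-11). Females had 1544 to 2116 normalized counts of zp2.1, 559 to 1372 of zp2.3 and 886 to 1837 of zp2.5. In the males, no library held more than 7 reads of zp2.1, 4 reads of zp2.3 or 14 reads of zp2.5. Among EM fish the log2 differences were 9.13 ± 0.397 for zp2.1, 7.98 ± 0.394 for zp2.3 and 7.79 ± 0.566 for zp2.5 (SE), with edgeR adjusted p of 2.20e-10, 6.85e-10 and 3.25e-08. These fitted sizes rest on few male reads. The 3 genes passed the read filter through the females, so that their adjusted p adds no support of its own. Both control males had at most 3 reads of each of these genes, and against a floor of 3 reads per library the control females were at least 362-fold higher for zp2.1, at least 170-fold for zp2.3 and at least 245-fold for zp2.5.

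The zp2-like genes zp2l1 and zp2l2 had the lowest sex differences of the zp2 branch. Normalized counts of zp2l2 were 340 to 909 in the EM-females, with a median of 775, and 359 and 449 in the control females. The EM-males had 17.6 to 55.9, with a median of 37.2, and the control males 13.4 and 54.1. The sexes did not overlap for zp2l2, and the log2 difference in EM fish was 4.37 ± 0.349 (SE, edgeR adjusted p = 6.44e-08). Normalized counts of zp2l1 were 16.4 to 86.4 in the EM-females, with a median of 28.0, and 35.7 and 53.4 in the control females. The EM-males had 6.83 to 43.2, with a median of 16.1, and the control males 2.77 and 29.4. The EM-treated sexes overlapped for zp2l1, and its log2 difference of 0.83 ± 0.519 (SE, 95% interval −0.28 to 1.95) did not pass the test (edgeR adjusted p = 0.157).

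The remaining gene, zpcx, was detected in every female. Its normalized counts were 74.0 to 158 in the EM-females, with a median of 94.1, and 129 and 200 in the controls of that sex. No male was above 3.81, and all 8 males held at most 3 reads of zpcx. Against a floor of 3 reads per library, the EM-females were at least 23.2-fold and the control females at least 32.6-fold higher.

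Testis levels relative to ovary differed widely between the genes. The mean of the EM-males was 0.118% of the mean of the EM-females for zp3a.1, 0.158% for zp2.1 and 0.192% for zp3.2 (ENSDARG00000090768). It was 3.29% for zp3d.1, 3.15% for zp3c, 5.10% for zp2l2 and 34.6% for zp3d.2. For zp2l1, at few counts in both sexes, it was 60.5%. In single EM-males the level of zp3d.2 lay between 24.0 and 42.8% of the EM-female mean, while zp3a.1 in the same fish lay between 0.0607 and 0.157%. Control fish gave 21.5% for zp3d.2 and 0.0765% for zp3a.1. The genes therefore did not keep 1 common ratio between testis and ovary.

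**Figure D2:**
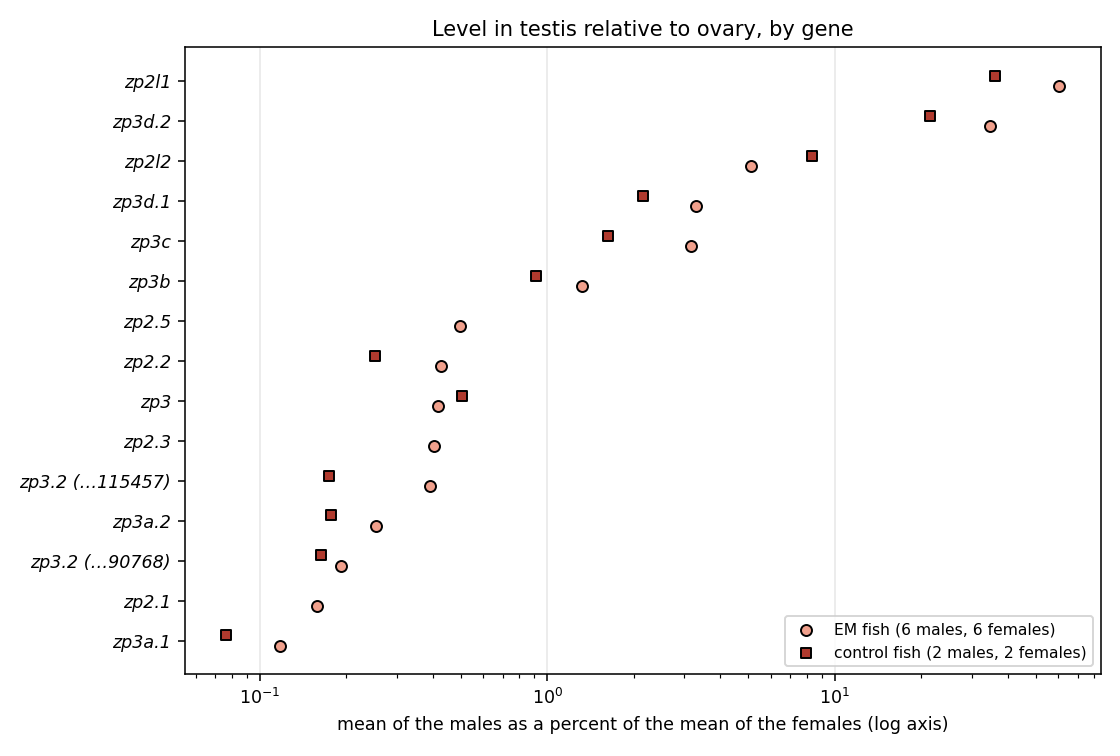
Mean normalized count of the males as a percent of the mean of the females (log axis) for EM fish (circles, 6 males and 6 females) and control fish (squares, 2 and 2). Genes whose males all held at most 3 reads are not drawn (zpcx in both sets, and zp2.1, zp2.3 and zp2.5 in the controls); EM fish span 0.118% for zp3a.1 to 60.5% for zp2l1.

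Oocyte genes outside the egg coat were also found in testis, at levels that varied widely relative to ovary. The EM-male mean was 0.297% of the EM-female mean for h1m, 11.9% for lhx8a, 19.5% for org and 23.2% for ccnb1. It was 457% for dazl and 258% for ddx4. The oocyte growth factors gdf9 and bmp15 summed to 2496 to 2970 normalized counts in females and 19.2 to 67.5 in males, and figla, a factor that in mouse directs the expression of zona pellucida genes, had 109 to 206 in females and 0 to 17.9 in males. All 3 oocyte transcription factors and both growth factors passed the edgeR test as higher in EM-females than in EM-males. Of 12 genes of the maternal store of the egg that were tested, 9 were higher and 2, the germ cell genes dazl and ddx4, were lower in EM-females. Beside these counts, 34.6% of all genes tested were higher and 41.4% lower in EM-females. Genes with few reads in EM-males, nanos3 and ca15b among them (at most 6 reads each), passed the read filter through the females. Their call as higher adds no support of its own. The EM50 male replicate 1 had the highest male level of 10 of the 16 zona pellucida genes, and the share over all genes is not given here for this fish. Its summed oocyte transcription factors, at 145, and oocyte growth factors, at 39.4, lay within the ranges of the other males. It was the highest male for 3 of 13 genes of the maternal store. These were zar1 at 58.5 normalized counts (the next male had 56.4), org at 2253 (next 1444) and ca15b at 7.63 (next 6.69). That fish was also the highest male for cd9b, 1 of 3 genes listed for the egg surface and sperm binding, at 303. The same held for 4 of 10 further zp genes, zpax1 at 343 and zpax2 at 131 among them. EM200 male replicate 1 was the highest male for 4 of the 13 maternal store genes (dazl, ddx4, nanos3 and h1m). Of these, dazl and ddx4 were the 2 genes lower in EM-females than in EM-males. The part of any oocyte RNA in the testis values was not tested.

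Exemestane changed none of the 16 genes in females at the threshold used. Comparing the 6 EM-females with the 2 control females, edgeR's quasi-likelihood test called 0 of 16 genes, where 2 of 15907 genes (0.0126%) were called over the whole table. At an unadjusted p under 0.05 there was 1 gene, zp2l2, while 11.7% of all genes tested reached that level. DESeq2 also called 0 of the 16, but over the whole table it called many more genes than edgeR. Those counts are given in the closing section on processing. The fitted differences were positive for 5 genes and negative for 11. Their median was −0.11 on the log2 scale, with 0.01 over all genes tested. For none of the 16 genes did all EM-females lie above both control females, or all below, orders that 6.33% and 5.45% of all genes showed.

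The intervals set how large a difference these fish could hide, and they varied between the genes. For zp3d.1 the log2 difference was 0.02, with a 95% interval of −0.14 to 0.19. For zp3a.1 it was −0.15 with an interval of −0.37 to 0.06, and for zp3b −0.15 with an interval of −0.43 to 0.13. For these genes, changes beyond those narrow bounds lay outside the interval. For zp3 the difference was 0.90, but the interval ran from −0.44 to 2.24, and edgeR's adjusted p was 0.593. The widest intervals belonged to zp3, zp2l1 and zp3.2 (ENSDARG00000115457), as the plot of differences shows.

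**Figure D3:**
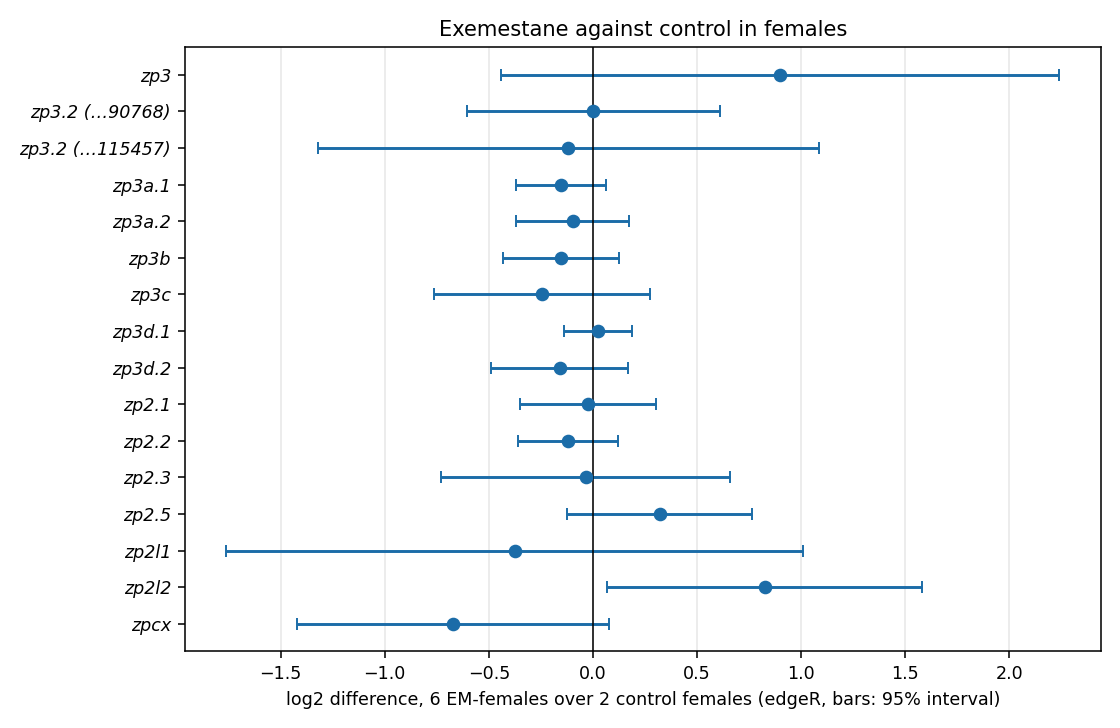
Log2 difference between the 6 EM-females and the 2 control females for each of the 16 genes (points, edgeR) with its 95% interval (bars); the vertical line marks no difference. The interval includes 0 for all genes but zp2l2, whose difference did not pass after adjustment over all genes (adjusted p = 0.384).

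The gene that came nearest to the threshold in females was zp2l2. Control females had 359 and 449 normalized counts of zp2l2, EM50 females 340 and 792, EM100 females 704 and 758, and EM200 females 876 and 909. Of the 6 EM-females, 5 lay above both controls and 1, the EM50 female replicate 1, lay below both. The log2 difference was 0.82 ± 0.333 (SE), with an interval of 0.07 to 1.58, an unadjusted p of 0.0357 and an adjusted p of 0.384 in edgeR's quasi-likelihood test. Across the EM-females the log2 change per doubling of the concentration was 0.34 (95% interval −0.07 to 0.75, edgeR adjusted p = 0.9998), so that the ordered means of the 3 concentrations were not beyond the spread between fish.

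For zpcx the difference lay in the other direction. Control females had 129 and 200 normalized counts of zpcx, EM50 females 103 and 158, EM100 females 74.0 and 85.1, and EM200 females 82.9 and 126. Of the EM-females, 5 lay below both controls and 1 lay between them. The log2 difference was −0.67 ± 0.331 (SE), with an interval of −1.42 to 0.08 and an edgeR adjusted p of 0.472.

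Over the concentrations of exemestane, no gene of the 16 showed a slope in EM-females that passed the edgeR test, and 0% of the 14854 genes tested did. At an unadjusted p under 0.05 there was again none of the 16, against 4.22% of all genes. DESeq2 called none of the 16 either, though it called genes elsewhere in the table (count in the closing section). The zp3 gene had the largest fitted slope, 0.42 per doubling of the concentration (95% interval −0.43 to 1.26). Its normalized counts were 2488 and 3537 in control females, 3504 and 4618 at 50 μg/L, 1792 and 10253 at 100 μg/L, and 6751 and 7537 at 200 μg/L. The 2 females at 100 μg/L were the lowest and the highest of all females, and no order of the concentrations could be read from them.

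In males, 13 of the 16 genes had enough reads to be tested, and zpcx, zp2.1 and zp2.3 did not. Between the 6 EM-males and the 2 control males edgeR called 0 of 13, where 1 of 19417 genes (0.00515%) was called over the whole table. At an unadjusted p under 0.05 there was none of the 13, against 6.12% of all genes. DESeq2 called none of them, though it called many more genes than edgeR over the whole table (count in the closing section). All 13 fitted differences were positive, with a median of 0.57 on the log2 scale against 0.02 over all genes tested. These genes were measured in the same fish, and the share of positive differences over all genes is not given here. For 5 of the 13 the sign changed when 1 fish was left out. The summed level of the 16 genes was 1037 to 1791 normalized counts in the EM-males, against 856 and 1008 in their controls. Much of this sum was zp3d.2, at 430 to 768 in the EM-males and 361 and 482 in the control males.

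The male difference had the smallest standard error for zp3d.2. Normalized counts of zp3d.2 were 361 and 482 in control males, 547 and 768 at 50 μg/L, 677 and 723 at 100 μg/L, and 430 and 574 at 200 μg/L. Of the 6 EM-males, 5 lay above both controls and 1 between them. The log2 difference was 0.54 ± 0.320 (SE), with a 95% interval of −0.18 to 1.26 and an edgeR adjusted p of 0.854. For no gene of the 16 did the EM-males all lie above or all below the control males, orders that 4.58% and 2.88% of all genes showed.

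Whether the response to exemestane differed between the sexes was tested as an interaction over all 16 fish. None of the 16 genes passed the edgeR test, and 0% of the 22106 genes tested did. At an unadjusted p under 0.05 there was 1 gene, zp2.3, against 7.60% of all genes, and that value rests on male libraries with 0 to 4 reads. DESeq2 called none of the 16 genes, though it called genes elsewhere in the table (count in the closing section). The fitted interactions were negative for 14 genes and positive for 2, with a median of −0.76 on the log2 scale against 0.03 over all genes tested. For 6 of the 16 genes the sign changed when 1 fish was left out. For zp2.2 the interaction was −0.84 on the log2 scale (95% interval −1.69 to 0.00, edgeR adjusted p = 0.655), and for zp2l2 it was 0.82 (−0.71 to 2.35, edgeR adjusted p = 0.871).

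The genes differed in how far the 8 ovaries varied around their mean. The coefficient of variation, the SD as a percent of the mean, was 3.84% for zp3d.1, 8.73% for zp3a.1, 9.47% for zp2.2 and 10.4% for zp3a.2. It rose to 44.9% for zp3.2 (ENSDARG00000115457), 57.0% for zp3 and 60.9% for the thinly counted zp2l1. Of the 16 genes, 12 had a mean of at least 1000 normalized counts in females, and their median coefficient of variation was 12.3%, equal to the 12.3% of the 1836 genes of the whole table with such a mean. Of these 12 genes, 5 lay above the upper quartile of 16.8%.

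**Figure D4:**
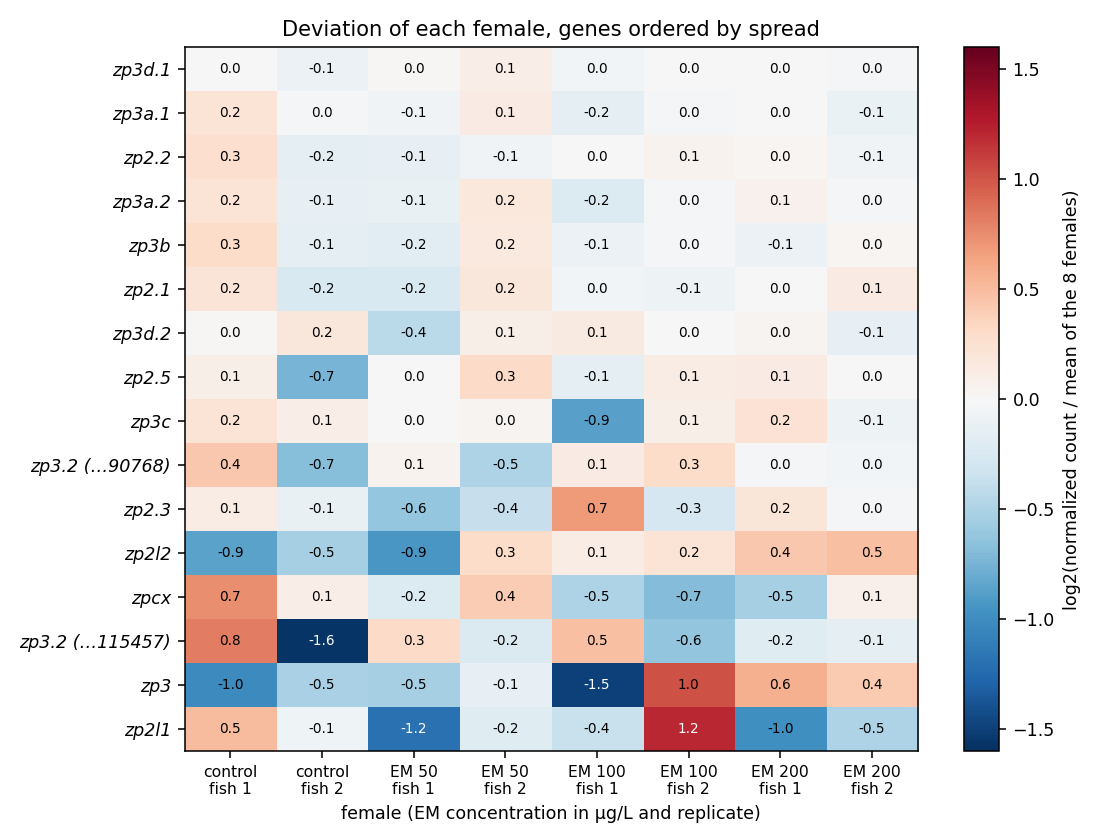
Log2 ratio of each female's normalized count to the mean of the 8 females (colour and printed value), with genes in rows ordered by their coefficient of variation and females in columns by treatment. The rows of zp3 and zp3.2 (ENSDARG00000115457) hold the deepest colours among genes with over 1000 counts, and control female replicate 1 is highest for 8 of the 16 genes.

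The wide spread of zp3 and of its neighbour was not shared between them. Normalized counts of zp3.2 (ENSDARG00000115457) were 11499 and 2197 in the control females, 8008 and 5517 at 50 μg/L, 9075 and 4190 at 100 μg/L, and 5675 and 5863 at 200 μg/L. In EM100 female replicate 1, zp3 was at its lowest, 1792, and this zp3.2 gene at 9075, while in EM100 female replicate 2 zp3 was at its highest, 10253, and the zp3.2 gene at 4190. Over the 8 females the correlation of their log2 counts was −0.45 (Spearman −0.67). Summed with zp3.2 (ENSDARG00000090768), which took 16416 to 35502 normalized counts, the trio had a coefficient of variation of 23.3%. That gene alone had 24.2%, and its mean of 26326 made up most of the trio's mean of 37889. Its log2 counts had a Pearson r of 0.72 with zp3.2 (ENSDARG00000115457) and of −0.03 with zp3. The part of reads shared between these copies in this pattern was not tested.

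Other neighbouring genes moved together to different degrees over the same 8 females, which share the library and its depth with both genes of a pair. Pearson's r of the log2 counts was 0.91 for zp3a.1 with zp3a.2, 0.64 for zp2.1 with zp2.5, 0.36 for zp2.2 with zp2.3 and −0.23 for zp3d.1 with zp3d.2. Over all 120 pairs of the 16 genes the median was 0.23, with a range from −0.60 to 0.91. The pair of zp3a genes thus had the highest correlation of all pairs.

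The control females held many of the extremes, and some EM-females held many of the low ones. Control female replicate 1 was the highest female for 8 of the 16 genes and control female replicate 2 the lowest for 6. EM50 female replicate 1 was the lowest for 5 and EM100 female replicate 1 for 4. How often these fish held the extremes over all genes is not given here. The summed level of 15 liver markers, vitellogenins among them, was 2553 normalized counts in control female replicate 1, against 91.8 in control female replicate 2 and 53.4 to 534 in the EM-females. All 15 markers were above 0 in control female replicate 1, and apoa1b, apoa2 and serpina1 were at 0 in control female replicate 2. The same liver sum was 962 to 27341 in the EM-males and 1398 and 19558 in the control males. In these males the 16 zona pellucida genes summed to between 856 and 1791. The part of liver RNA in the zona pellucida values was not tested.

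Outside the rule, 10 further genes of the count table carry a zp symbol in the reference table. Of the 8 that could be tested, 7 were higher in EM-females than in EM-males and none was lower. Over all genes tested, 34.6% were higher. The median log2 difference of the 8 was 6.16. Among the further genes, zp2.6 had at most 4 reads in any male and passed the read filter through the females. They included zp3e, with 16848 to 21824 normalized counts in females and 9.70 to 48.1 in males, and zpax1, with 17388 to 29490 in females and 67.9 to 343 in males. None of the 8 passed the edgeR test between EM-females and control females, where their median log2 difference was −0.04. That median covers differences in both directions. For zpax1 all EM-females (22491 to 29490) lay above both controls (17388 and 22259), an order that 6.33% of all genes showed. The EM-female mean was below the control mean for zp3f.1 (5757 against 10506) and zpax4 (57.7 against 143). Most of the further genes tested thus showed the same order of the sexes as the 16 genes chosen by the rule, but not all further genes did. Among EM fish the sexes overlapped for zpax4 and ZPLD1 (ENSDARG00000063372). No fish held more than 7 reads of zpd or 2 reads of ZPLD1 (ENSDARG00000061835).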

How the data were processed

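Gonad RNA from 16 single fish was measured by stranded polyA+ RNA-seq. The authors aligned reads with HISAT2 2.0.5 to GRCz11, dropped PCR duplicates (SAMtools 1.5) and obtained gene counts from HTSeq 0.9.1. They deposited raw counts and a signal table of counts divided by DESeq2 size factors, which were recomputed here and matched. Levels are the authors' deposited normalized counts, and tests used the deposited counts. The 5 tallies of HTSeq that name no gene were left out.

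Each comparison was fitted on its own fish with edgeR 4.0.16 under R 4.3.3, using TMM factors, the filter filterByExpr and a two-sided quasi-likelihood F test with robust dispersions, with Benjamini-Hochberg adjustment over all tested genes and a threshold of 0.05. Standard errors (SE) were derived here from each fit, as the size of the log2 difference divided by the square root of its F value. The 95% intervals were built from these SE with a t quantile. Both are therefore approximate. The EM fish of the 3 concentrations, each 1 tank, were pooled in all tests but the slope. P-values thus measure the spread between fish within and across those tanks, and the control fish are taken from 1 tank. The scripts were tested on simulated data. Alternatives were DESeq2 1.42.0, edgeR with the size factors of DESeq2, a minimum of 1 count as the only filter, 1 model of all 16 libraries, a replicate block, and leaving out each fish. All genes found by the rule are named. The members and lists were chosen with earlier results of these data known. Marker lists were matched by symbol. For the follicle, testis, liver and blood lists, 1 of 8, 0 of 13, 0 of 12 and 0 of 4 tested genes were higher in EM-females. In the same lists 6, 11, 12 and 4 were lower. Over all genes tested, 34.6% were higher and 41.4% lower. List genes with few reads in EM-females, tssk6, insl3, cyp11c1 and vtg6 among them, passed the read filter through the males. Their call as lower followed largely from that filter. Of 3 genes listed for the egg surface and sperm binding, 2 were higher. The other, spaca6, was lower, with a mean of 3.64 normalized counts in EM-females and 1506 in EM-males. None of the lists had a gene called by edgeR between EM-females and control females, where it called 2 of 15907 genes over the whole table. The study, which used DESeq2, reported vtg2, vtg4, vtg6 and vtg7 as lower and gsdf as higher in EM-females. GRCz12tu, the assembly of the reference table, was used only for gene names and neighbours.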

Additional observations from a re-analysis of the deposited data

Results flagged for a closer look

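In 4 of the 32 groups of 6 EM-treated fish of 1 sex examined, 1 per gene and sex, a single fish stood apart, its gap to the nearest fish being above Dixon's critical value at the 95% level. Chance gives about 1 such group in 20. For zp2l2, EM50 female replicate 1 had 340 normalized counts where the other EM-females had 704 to 909. For zp2l1, EM100 female replicate 2 had 86.4 where the others had 16.4 to 32.8. For zp3c, EM100 female replicate 1 had 3412 where the others had 5856 to 7286. For zp2.2, EM50 male replicate 1 had 42.0 where the other EM-males had 17.6 to 22.3.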

How the results depend on the processing

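Where a zona pellucida gene had a call in both the main fit and an alternative, the call was the same in every comparison. The alternatives were DESeq2, edgeR with the size factors of DESeq2, and a minimum of 1 count as the only filter. Further ones were the model of all 16 libraries (where run), the replicate block and leaving out any 1 fish. Between EM-males and control males, zpcx, zp2.1 and zp2.3 had no call in the main fit. The sex difference among EM fish kept its sign for all 16 genes in all of these fits. Fitted differences that had passed no test changed sign without 1 fish for 9 genes between EM-females and control females, 5 between EM-males and control males, 11 in the concentration slope and 6 in the interaction, and under another setting for 2, 0, 2 and 0 genes.

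The number of genes called over the whole table did depend on the setting. Between EM-females and control females it was 2, with 392 by DESeq2, 7 with that minimal filter, and 0 to 20 without 1 fish (0 without control female replicate 2, 20 without control female replicate 1). Between EM-males and control males it was 1, with 124 by DESeq2, 0 under the replicate block, and 0 to 7 without 1 fish (7 without control male replicate 2). In the slope it was 0, with 109 by DESeq2, and in the interaction 0, with 116 by DESeq2 and 0 to 5 without 1 fish. The cause of these shifts was not tested. The summed level of the 16 genes in EM-females was 0.984 of that in control females, and 0.818 to 1.23 without 1 fish, both ends being fits without 1 control female.

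Without 1 fish, the log2 difference between EM-females and control females ranged from −0.0105 to 0.0719 for zp3d.1, −0.34 to 0.0745 for zp3b and −0.0258 to 0.79 for zp2.5, that between EM-males and control males from −0.0551 to 1.01 for zp3b, and the interaction from −0.76 to 1.45 for zp2l2.

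The replicate numbers were not used to pair the fish in the main fits. Deviations of same-numbered fish had r over 0.1 in 3 of 28 pairs of groups (range −0.29 to 0.30). These 3 were the pairs among the EM-male groups (0.22, 0.30 and 0.14), and each EM-male group had a negative r with the control males (−0.25, −0.20 and −0.29). The depth of the male libraries limited the smallest values, where 3 reads or fewer of up to 5 of the 16 genes were held by a single male.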
